A study of Mus musculus with 7 samples.

Results

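Open chromatin was described at 7 genes of the Hedgehog pathway, namely the receptor genes Ptch1, Smo, Hhip and Gas1 and the effector genes Gli1, Gli2 and Gli3, in mouse tooth and facial tissue. The assay was Omni-ATAC, in which a transposase tags accessible DNA so that sequenced fragments pile up as peaks. A peak was counted for a gene if it lay inside the gene or within 50 kb of it on GRCm38, and counts were made from all autosomal peaks of each library (full lists) and again from the 38000 autosomal peaks of each library with the smallest p-values (equal-length lists). Merging the peaks of all 7 libraries gave 128642 autosomal regions, of which 178 belonged to the 7 genes: 50 to Gli2, 48 to Gli3, 28 to Ptch1, 18 to Smo, 15 to Hhip, 10 to Gas1 and 9 to Gli1. The genes were chosen by name, with earlier results of these data known.

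The libraries fall into 5 groups. Ectoderm peeled with Dispase II from the first pharyngeal arches at embryonic day 11.5 gave 2 libraries (ectoderm). Sox2-positive cells sorted from the dissociated labial cervical loop of the lower incisor at postnatal day 2 gave 2 libraries, and are called the sorted cells here. The labels call them DESC, a name for dental epithelial stem cells. They came from Sox2-GFP mice, in which the endogenous Sox2 promoter drives the fluorescent protein, so the sort selects cells by Sox2 promoter activity. From the same postnatal age came 1 library each of the entire lower incisor, lower first molar and upper first molar, and differences that rest on them have no replicate check. The labels give neither strain nor the number of animals pooled, and do not say whether replicates were separate litters. Whole teeth hold epithelium, mesenchyme, vessels and blood, and a peak carried by fewer cells cannot be told apart from one that is less open in each cell.

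Hedgehog ligands bind PTCH1 at the cell surface, which relieves its block on SMO, and SMO signalling at the primary cilium then turns the GLI proteins from repressors into activators. GLI3 acts mainly as a repressor, GLI2 mainly as an activator, and GLI1, PTCH1 and HHIP are themselves induced by the signal, the last pair acting as negative feedback by binding the ligand. GAS1 is a co-receptor that helps ligand reach PTCH1. In teeth, Sonic hedgehog is made by the dental epithelium and acts on both the epithelium and the neighbouring mesenchyme.

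All 7 genes had a peak within 1 kb of the gene start in all 7 libraries, against 56.5% of 16457 protein-coding genes (52.4% with 38000 peaks per list). Among the 38000 peaks per list, this held for 6 of the 7. The exception was Hhip. Gene starts came from RefSeq (GRCm38.p6), which gave a start and its sequence for 6 of the 7 genes. For Gli1 no start was matched and a peak within 1 kb of either gene end was counted. The sequences around the starts of Ptch1, Hhip and Gli3 are shown because the results below turn on these genes, from 250 bases before to 50 after the start, on the strand of the gene (minus for Ptch1 and Hhip, plus for Gli3), with GC boxes in capitals. They lie at chr13:63565686-63565985, chr8:80057959-80058258 and chr13:15463473-15463772.
Ptch1: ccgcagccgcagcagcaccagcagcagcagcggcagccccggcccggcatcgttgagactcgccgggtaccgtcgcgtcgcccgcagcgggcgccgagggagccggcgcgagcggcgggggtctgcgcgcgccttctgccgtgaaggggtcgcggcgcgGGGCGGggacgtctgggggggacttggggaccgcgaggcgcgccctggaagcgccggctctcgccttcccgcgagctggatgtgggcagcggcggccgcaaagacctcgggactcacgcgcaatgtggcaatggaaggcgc
Hhip: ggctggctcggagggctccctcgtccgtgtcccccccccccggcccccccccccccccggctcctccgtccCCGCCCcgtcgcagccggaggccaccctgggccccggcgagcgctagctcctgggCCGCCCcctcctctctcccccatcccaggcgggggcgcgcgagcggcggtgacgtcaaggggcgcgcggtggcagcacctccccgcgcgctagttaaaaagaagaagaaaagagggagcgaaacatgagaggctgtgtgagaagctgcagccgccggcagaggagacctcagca
Gli3: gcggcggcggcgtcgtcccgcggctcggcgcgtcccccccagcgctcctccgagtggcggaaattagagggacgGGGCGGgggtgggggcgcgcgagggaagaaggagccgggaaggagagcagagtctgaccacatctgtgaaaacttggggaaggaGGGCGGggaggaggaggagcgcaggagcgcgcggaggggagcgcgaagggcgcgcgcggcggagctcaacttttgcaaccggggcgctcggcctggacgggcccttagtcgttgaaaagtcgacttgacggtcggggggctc

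The 3 sequences are rich in G and C, at 76.3% for Ptch1, 73.7% for Hhip and 71% for Gli3, against a median of 57% over 20085 RefSeq gene starts. A GC box, spelled GGGCGG on either strand, occurred at 5 of the 6 starts (1 match each at Gli2, Ptch1 and Gas1 and 2 each at Gli3 and Hhip, none at Smo) and at 47% of all starts. The GLI binding motif GACCACCCA was found at none of the 6 starts and at 0.174% of all starts, and the relaxed form GACCNCCCA at none of the 6 and at 1% of all. The AP-2 motif GCCNNNGGC had 2 matches at Hhip and none at the other 5 starts, against 20.2% of all starts with a match. The TCF/LEF motif CTTTGAA and the E-box CACCTG were found at none of the 6, against 4.45% and 20% of all starts. Both strands were searched for each motif, and the GLI motif also counts in its relaxed form.

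The start of Gli3 was among the strongest peaks of every list. By the authors' peak signal it stood in the top 0.448% and 0.678% of the ectoderm lists, 0.693% and 1.29% of the Sox2-positive lists, 0.458% of incisor, 0.95% of lower molar and 0.557% of upper molar. The start region of Gas1 stood in the top 0.306% and 0.374% of the ectoderm lists, 3.92% and 2.16% of the Sox2-positive lists, and between 1.23% and 2.39% of the whole-tooth lists. For Ptch1 the corresponding places were 0.774% and 0.947% in ectoderm, 6.76% and 0.537% in the sorted cells and between 0.226% and 0.327% in whole teeth. Sox2-positive replicate 1 stood apart at Ptch1: its peaks left a gap over the start itself and covered 154 of the 300 bases shown, while the other 6 libraries covered all 300. The Smo start peak stood in the top 3.64% to 8.28% of the 7 lists, and its summit lay between 3 and 7 bp from the start.

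Hhip had the weakest start peak of the genes with a matched start. It stood in the top 12.5% and 29.8% of the ectoderm lists, and at 62.6% and 68.8% in the sorted cells, 49.5% in incisor, 76.9% in lower molar and 34.4% in upper molar. The peak was 1847 and 1355 bp wide in ectoderm and 347 bp wide in Sox2-positive replicate 2. It covered all 300 bases shown in both ectoderm libraries and upper molar, 210 and 250 bases in the sorted cells, 250 in incisor and 227 in lower molar. On equal-length lists both ectoderm and both Sox2-positive libraries kept it and no whole-tooth library did. These places are within lists of different length and do not measure a change between libraries.

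The autosomal lists held 80850 and 49719 peaks in ectoderm, 41829 and 38326 in the sorted cells, and 62074 to 68877 in whole teeth, and the read depth behind them is unknown. The 38000 peaks therefore take in nearly all of the Sox2-positive lists but a smaller part of the others: the lowest −log10 p among them was 4.79 and 3.82 in ectoderm, 3.33 and 2.94 in the sorted cells and 4.01 to 4.28 in whole teeth. Gene-start peaks were present in every library at the keratin genes Krt5 and Krt14, which mark epithelium. Of 6 mesenchymal marker genes, 6 had one in each of the 5 postnatal libraries, 4 in ectoderm replicate 1 and 5 in ectoderm replicate 2. Pdgfra, a receptor of mesenchymal cells, had none in ectoderm and one in both Sox2-positive libraries. In the sorted cells that peak did not cover the start itself. The Pdgfra window held 4 and 3 peaks in ectoderm and 10 and 9 in the sorted cells. That of Col1a2, a collagen gene, held 2 and 2 against 9 and 7, and that of Col1a1 11 and 7 against 13 and 14. Msx1 went the other way, at 11 and 9 against 3 and 3. Twist1 had 2 and 2 in each group, and Prrx1 3 and 4 against 4 and 2. Ptprc and Cd53 of blood, Sox10 and Foxd3 of neural crest and Pecam1 and Tek of vessels had none in any library. Sox2, the gene behind the sort, had a start peak in all 7 libraries, which ectoderm and the sorted cells kept among their 38000 and whole teeth did not. The part of mesenchymal cells in the Sox2-positive peaks described here was not tested.

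**Figure D1:**
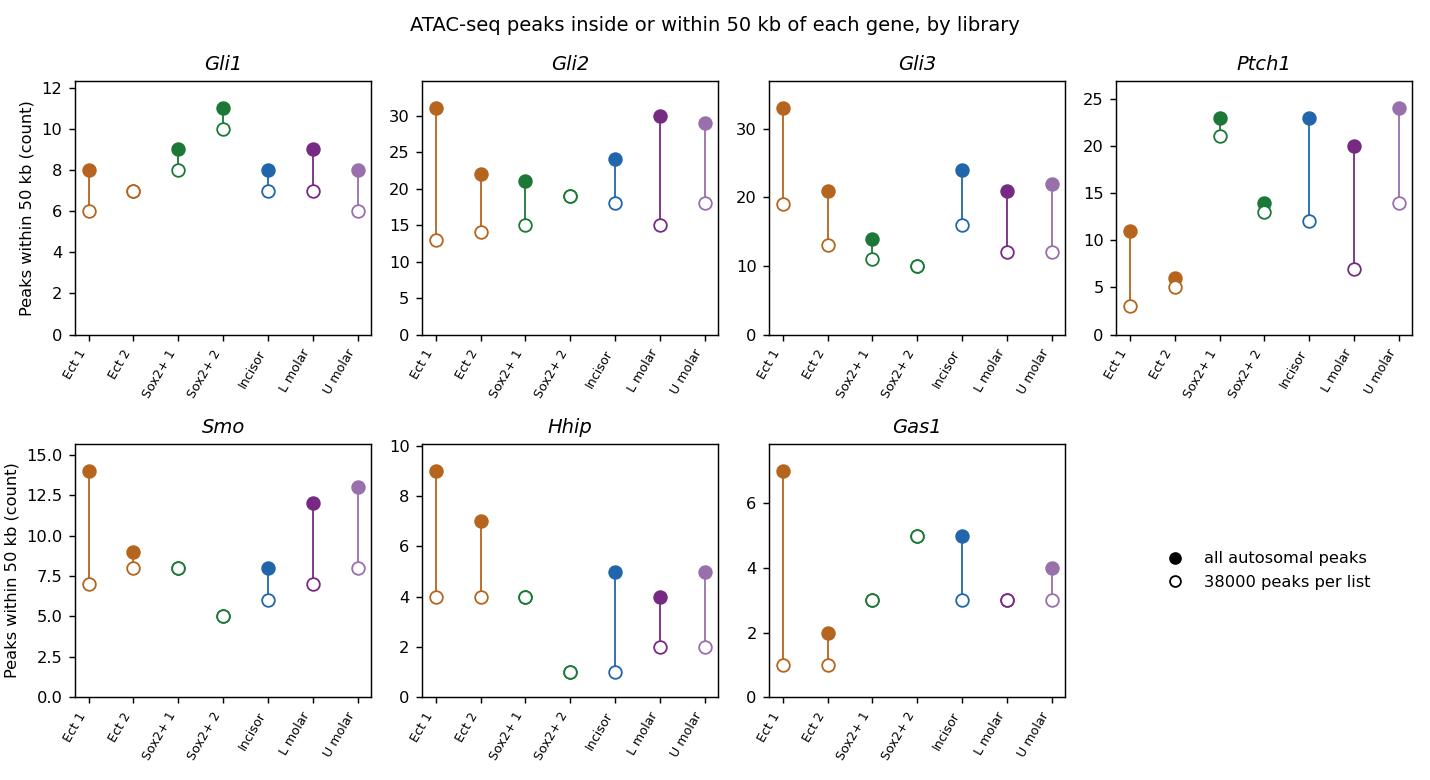
Number of peaks inside or within 50 kb of each gene (y axis, count) in the 7 libraries (x axis), for all autosomal peaks (filled circles) and for 38000 peaks per list (open circles), joined by a line for each library. At Ptch1 both Sox2-positive libraries lie above both ectoderm libraries with either list, at 23 and 14 against 11 and 6 peaks and at 21 and 13 against 3 and 5.

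The 7 genes together held 113 and 74 peaks in ectoderm, 82 and 65 in the sorted cells, 97 in incisor, 99 in lower molar and 105 in upper molar. Per 10000 autosomal peaks these were 14.0 (Wilson 95% interval 11.6 to 16.8) and 14.9 (11.9 to 18.7) in ectoderm and 19.6 (15.8 to 24.3) and 17.0 (13.3 to 21.6) in the sorted cells. Whole teeth had 15.6 (12.8 to 19.1), 14.4 (11.8 to 17.5) and 15.6 (12.9 to 18.9). The intervals cover counting error only and overlap among all 7 libraries. Both Sox2-positive libraries lay above both ectoderm libraries, with means of 18.3 ± 1.87 and 14.4 ± 0.641 (SD, n = 2 each), and Ptch1 carried this difference. The two-sided exact permutation test gave p = 0.333, the smallest that 2 libraries against 2 allow, so no comparison of these groups can pass the usual threshold. With equal-length lists the means were 17.5 ± 1.30 and 13.8 ± 0.186 (SD, n = 2 each). Without the peaks of Ptch1 the other 6 genes had 12.6 and 13.7 per 10000 in ectoderm and 14.1 and 13.3 in the sorted cells, and 50 and 47 against 49 and 50 peaks on equal-length lists, so the groups overlapped with either list. Leaving out any other of the 7 genes left the groups apart.

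The first comparison set Sox2-positive cells against embryonic ectoderm. They differ in age, tissue and isolation at once, which cannot be told apart. A region was called for one group if both of its libraries had a peak there and neither library of the other did. Of the 145 regions that these 4 libraries gave at the 7 genes, 14 were Sox2-positive-only (9.66%, against 7.78% of all autosomal regions) and 27 were ectoderm-only (18.6%, against 23.1%). With 38000 peaks per list, 16 of 101 regions were Sox2-positive-only (15.8%, against 14.4% of all) and 19 were ectoderm-only (18.8%, against 18.4%). The totals were thus near the background, and the genes differed among themselves. Ptch1 had 6 Sox2-positive-only and 0 ectoderm-only regions, whereas Gli3 had 2 and 14, Hhip 0 and 5, Gli2 4 and 6, Smo 1 and 2, Gli1 1 and 0, and Gas1 0 and 0.

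**Figure D2:**
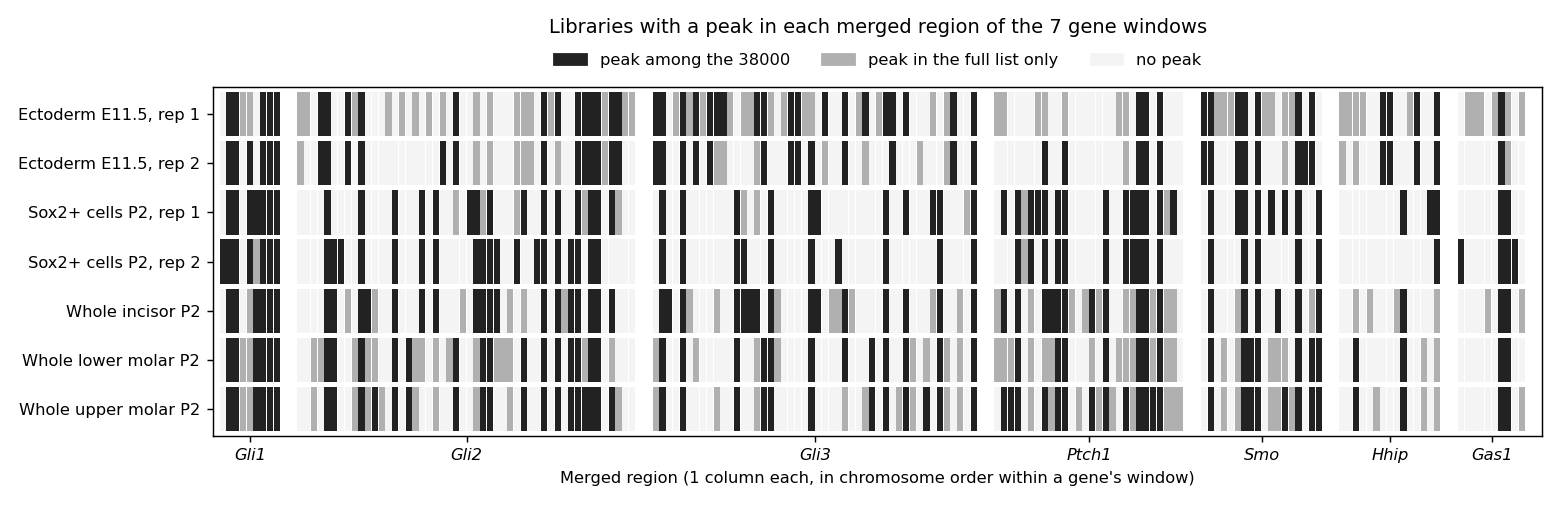
Presence of a peak in each of the 178 merged regions of the 7 genes (1 column each, in chromosome order within a gene) in the 7 libraries (rows), dark where the peak is among the 38000 of its list, grey where it is only in the full list and pale where there is none. Of the 178 regions 32 have a peak in all 7 libraries and 52 in 1 library.

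Ptch1, the receptor that holds SMO inactive and a feedback target of the pathway, had the largest excess of Sox2-positive over ectoderm peaks of the 7 genes. It lies on chromosome 13 at 63508328 to 63573460. Its window also takes in part or all of 1 other protein-coding gene, Fancc. The peak lists do not tell which gene a region in the window serves. The Ptch1 window held 11 and 6 peaks in ectoderm and 23 and 14 in the sorted cells. Incisor had 23, lower molar 20 and upper molar 24. All 5 postnatal libraries were above both ectoderm libraries. The means were 8.5 ± 3.54 in ectoderm and 18.5 ± 6.36 in the sorted cells (SD, n = 2 each). Of 18497 protein-coding genes with a peak in at least 1 of these 4 libraries, 3.43% had more peaks in both Sox2-positive than in both ectoderm libraries, and 0.0811% had a difference of the means as large as at Ptch1. In the equal-length lists Ptch1 had 3 and 5 peaks in ectoderm, 21 and 13 in the sorted cells, 12 in incisor, 7 in lower molar and 14 in upper molar. The shares of 18000 genes were then 20.2% and 0.106%. Neighbouring genes share peaks, so genes are not independent in these shares.

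Because one wide peak can be listed as several, the length under peaks was also taken. It was 11.6 and 9.21 kb in ectoderm, 18.1 and 14.5 kb in the sorted cells, 19.9 kb in incisor, 21.8 kb in lower molar and 27.1 kb in upper molar. The groups did not overlap on this measure either. Among the 38000 peaks per list, ectoderm had 6.79 and 8.49 kb and the sorted cells 16.8 and 13.9 kb.

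At the 5′ end of Ptch1, 3 regions had a peak in all 7 libraries with either list, at 63562970 to 63567128 over the RefSeq start, at 63567239 to 63569596 and at 63572072 to 63574822, the last over the outermost end of the annotated gene. They held all 3 peaks of ectoderm replicate 1 among its 38000 and 3 of the 5 of replicate 2. The 6 regions that both Sox2-positive libraries had and no ectoderm library had lay further into the gene and past its 3′ end. Upstream of the gene, regions at 63593335 to 63593955 and 63601858 to 63602412 had a peak in Sox2-positive replicate 1 and all 3 whole teeth and in no ectoderm library. The first of the 6 by mean rank of signal, at 63524672 to 63526667, was 40.1 kb from the start inside the gene and had a peak in all 5 postnatal libraries with either list. The region at 63505495 to 63508220, 58.9 kb from the start and just past the 3′ end, and the region at 63552388 to 63553066, 13.0 kb inside the gene, did so too. A region at 63512356 to 63513745 had a peak in all 5 postnatal libraries, of which the Sox2-positive ones kept it with 38000 peaks per list.

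The neighbouring region at 63527937 to 63529487, 37.0 kb inside the gene, had a peak in all 7 libraries. It stood at 59.1% and 61.0% of the ectoderm lists by signal and in the top 9.3% and 16.0% of the Sox2-positive lists. Whole teeth had it in the top 8.9% to 16.0%. In all, 5 of the 28 Ptch1 regions had a peak in all 5 postnatal libraries and in no ectoderm library, against 4.61% of all autosomal regions, and 0 had the reverse pattern, against 11.7%. On equal-length lists the counts were 3 and 0, against 6.29% and 12.8% of all regions. The Sox2-positive-only count of 6 at Ptch1 was 6 with either ectoderm replicate left out, and 7 and 10 without Sox2-positive replicates 1 and 2. It fell to 2 when each list was cut to the 50% that ranked first by p-value.

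**Figure D3:**
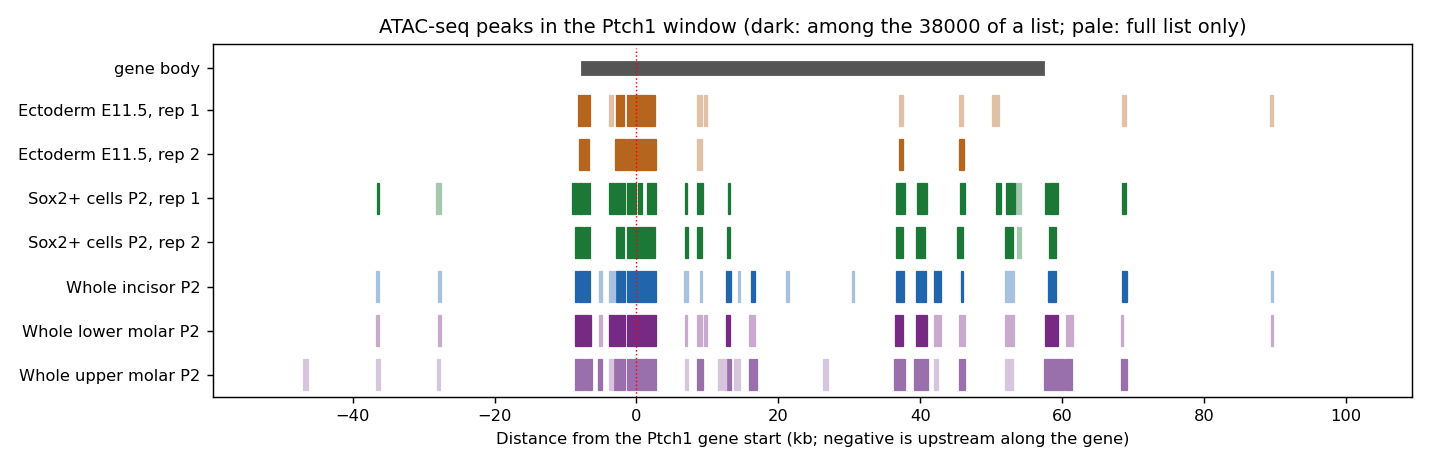
Peaks in the Ptch1 window by distance from the gene start (x axis, kb, negative upstream) in the 7 libraries (rows), dark where among the 38000 of a list and pale where only in the full list, with the gene body as a grey bar. All libraries have peaks around the start, and peaks near 40.1 and 58.9 kb are seen in the 5 postnatal libraries and in no ectoderm library.

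Gas1, the co-receptor gene, lies on chromosome 13 at 60174405 to 60177535 with no other protein-coding gene within 50 kb. Its window held 7 and 2 peaks in ectoderm, 3 and 5 in the sorted cells, 5 in incisor, 3 in lower molar and 4 in upper molar, and the groups overlapped. With equal-length lists ectoderm had 1 peak in each library, the one over the gene start, and the 5 postnatal libraries had 3 to 5. Part of this is how the start was listed: the 1 wide start peak of each ectoderm library corresponds to 2 peaks in each postnatal library. The length under peaks on these lists overlapped, at 3.05 and 3.45 kb in ectoderm and 2.68 and 3.45 kb in the sorted cells. The start region, at 60175529 to 60179123, and a region 16.0 kb upstream, at 60193000 to 60194061, had a peak in all 7 libraries. The upstream region was kept by all 5 postnatal libraries and by no ectoderm library with 38000 peaks per list. Its ectoderm peaks ranked 55858 and 39097 by p-value, the second just past the cut. Of the remaining 8 regions, 7 were found in 1 library and 1 in 3 libraries.

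Hhip, which encodes a membrane protein that binds and sequesters Hedgehog ligands, lies on chromosome 8 at 79965850 to 80058060. It had 9 and 7 peaks in ectoderm, 4 and 1 in the sorted cells, 5 in incisor, 4 in lower molar and 5 in upper molar. Both ectoderm libraries were above all 5 postnatal libraries, a direction shared between ectoderm and the sorted cells by 46.2% of genes. In the equal-length lists the counts were 4 and 4 in ectoderm, 4 and 1 in the sorted cells, and 1, 2 and 2 in the teeth in that order, and the replicated groups touched. The length under peaks was 5.2 ± 2.27 kb in ectoderm and 0.978 ± 0.892 kb in the sorted cells (SD, n = 2 each). On equal-length lists it was 3.57 and 2.28 kb against 1.61 and 0.347 kb.

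Inside Hhip, 3 regions had a peak in both ectoderm libraries and in no postnatal library with either list. They lay 20.1 kb from the start at 80037511 to 80038224, 51.0 kb at 80006674 to 80007321 and 54.2 kb at 80003592 to 80003952. In the ectoderm lists the strongest of them, at 51.0 kb, stood in the top 24.6% and 45.1% by signal. A different region, 27.3 kb from the start at 80030454 to 80030879, had a peak in Sox2-positive replicate 1 and all 3 whole teeth and in neither ectoderm library. The count of 5 ectoderm-only regions at Hhip became 3 with 38000 peaks per list by p-value, 2 by signal, 1 with lists cut to the 50% that ranked first by p-value, and 8 without ectoderm replicate 2.

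**Figure D4:**
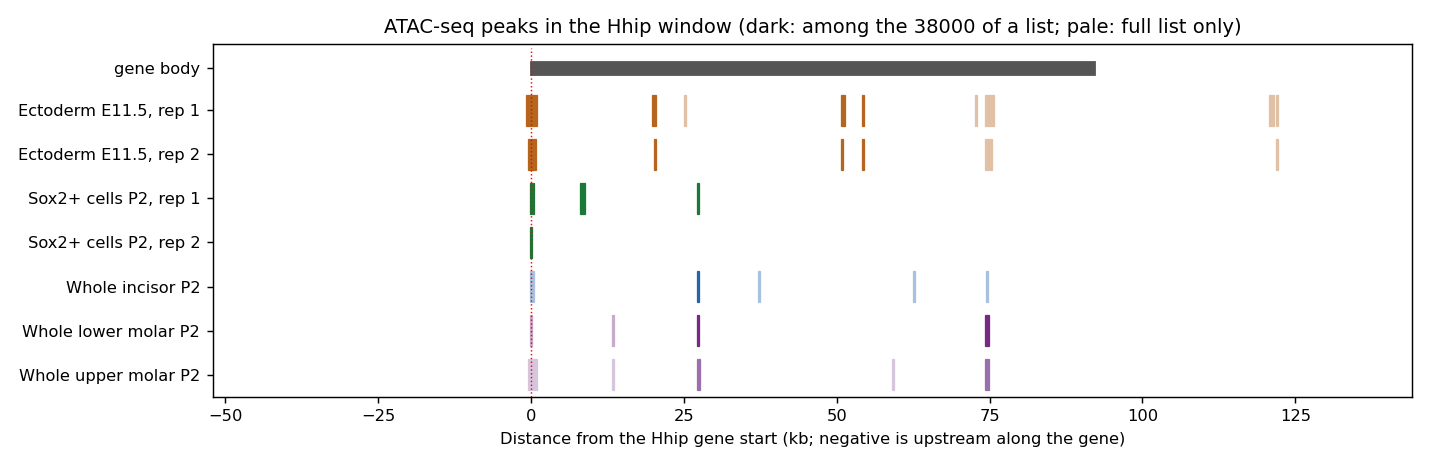
Peaks in the Hhip window by distance from the gene start (x axis, kb, negative upstream) in the 7 libraries (rows), dark where among the 38000 of a list and pale where only in the full list, with the gene body as a grey bar. The start peak is pale in the 3 whole teeth, and peaks at 20.1, 51.0 and 54.2 kb appear in the ectoderm libraries alone.

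Smo, which encodes the membrane protein that passes the signal on, lies on chromosome 6 at 29735497 to 29761366, between Tspan33 and Ahcyl2. It had 14 and 9 peaks in ectoderm, 8 and 5 in the sorted cells, 8 in incisor, 12 in lower molar and 13 in upper molar. Among the 38000 peaks per list, these became 7 and 8 in ectoderm, 8 and 5 in the sorted cells and 6, 7 and 8 in whole teeth, and the groups overlapped. The length under peaks was 7.61 and 7.78 kb in ectoderm and 7.41 and 4.70 kb in the sorted cells on those lists. Of its 18 regions 4 had a peak in all 7 libraries with either list: the Smo start, an end of Ahcyl2 and both ends of Tspan33. The 3 regions that were called between ectoderm and the sorted cells lay outside Smo. One at 29685146 to 29686163, 49.8 kb upstream, was found in ectoderm alone with either list.

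Downstream of Smo, inside the neighbouring gene Ahcyl2, 2 regions less than 1 kb apart differed in opposite directions. The region at 29770632 to 29771229 had a peak in both ectoderm libraries, all 3 whole teeth and neither Sox2-positive library. The region at 29771732 to 29772869 had one in all 5 postnatal libraries and neither ectoderm library, and kept this with 38000 peaks per list. It stood in the top 18.2% and 25.6% of the Sox2-positive lists by signal and in the top 14.0%, 5.71% and 4.49% of the incisor, lower molar and upper molar lists. The peak lists do not tell which gene either region serves.

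Gli1, the effector gene that is itself a target of the pathway, lies on chromosome 10 at 127329882 to 127341579 among 8 other protein-coding genes within 50 kb. It had 8 and 7 peaks in ectoderm, 9 and 11 in the sorted cells, 8 in incisor, 9 in lower molar and 8 in upper molar. On equal-length lists it had 6 and 7 in ectoderm and 8 and 10 in the sorted cells. Both Sox2-positive libraries were above both ectoderm libraries with either list, by 1 peak at the nearest. That pattern held for 3.43% of all genes in full lists and for 20.2% with 38000 peaks per list. Sox2-positive replicate 2 had 11 peaks in a window of 9 merged regions, so some regions were listed as more than 1 peak. The length under peaks was 12.7 and 12.5 kb in ectoderm and 12.9 and 16.2 kb in the sorted cells, and overlapped on equal-length lists at 11.4 and 12.5 against 11.8 and 15.2 kb. Of its 9 regions 6 had a peak in all 7 libraries, and 5 lay within 1 kb of an end of another protein-coding gene. The region at 127338727 to 127342812, over the higher-coordinate end of Gli1, had a peak in every library with either list. At the other end, where Gli1 meets Arhgap9, the region at 127330143 to 127331098 had a peak in all 5 postnatal libraries and in neither ectoderm library. In the sorted cells that peak was weak, at 93.4% and 85.1% of the lists by signal, and replicate 2 lost it with 38000 peaks per list.

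Gli2, the gene of the main activator, lies on chromosome 1 at 118834061 to 119054405 with no other protein-coding gene within 50 kb. It had 31 and 22 peaks in ectoderm, 21 and 19 in the sorted cells, 24 in incisor, 30 in lower molar and 29 in upper molar. With equal-length lists ectoderm had 13 and 14 peaks, below the 15 and 19 of the sorted cells, and whole teeth had 18, 15 and 18. The length under peaks did not turn with the list: it was 22.9 and 18.5 kb in ectoderm and 13.0 and 11.3 kb in the sorted cells in full lists, and 12.2 and 13.0 kb against 10.3 and 11.3 kb in equal-length lists. By length ectoderm was thus above with either list, and the turn in direction is one of peak number alone. Its 50 regions lay mostly inside the gene (42), and 9 had a peak in all 7 libraries. Besides the start, the highest in signal of these that held with either list were at 118873137 to 118874153 and 118890250 to 118892117, 180 and 162 kb inside the gene.

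Both kinds of group-only region occurred within Gli2. Ectoderm had peaks that the sorted cells lacked with either list at 118839469 to 118840716 and 118879005 to 118879883, 214 and 174 kb from the start. The first stood in the top 17.6% and 29.3% of the ectoderm lists. The sorted cells had peaks that ectoderm lacked with either list at 118907355 to 118908020, 118927607 to 118928492 and 118938283 to 118938786, the first 146 kb and the next 126 kb from the start. Whole incisor had a peak at all 3. Lower molar had all 3 and upper molar 2 in the full lists, and each molar kept 1 with 38000 peaks per list.

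Gli3, the gene of the main repressor, lies on chromosome 13 at 15463723 to 15730026, also with no other protein-coding gene within 50 kb. It had 33 and 21 peaks in ectoderm, 14 and 10 in the sorted cells, 24 in incisor, 21 in lower molar and 22 in upper molar. The means were 27 ± 8.49 in ectoderm and 12 ± 2.83 in the sorted cells (SD, n = 2 each). In the equal-length lists ectoderm had 19 and 13, the sorted cells 11 and 10, and whole teeth 16, 12 and 12. Gli3 was the 1 gene of the 7 with more peaks in both ectoderm than in both Sox2-positive libraries with either list, a pattern of 46.2% of all genes in full lists and of 23.1% with 38000 peaks per list. A difference at least as far in this direction was found for 0.476% and 0.878% of genes, and long genes such as Gli3 can hold more peaks. The length under peaks was 21.3 and 15.8 kb in ectoderm and 9.18 and 5.19 kb in the sorted cells, and on equal-length lists 13.5 ± 2.15 kb against 6.6 ± 1.99 kb (SD, n = 2 each).

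Of the 48 Gli3 regions, 7 had a peak in both ectoderm libraries and in no postnatal library, and all 7 lay inside the gene. The strongest was at 15541504 to 15542504, 78.3 kb from the start, in the top 8% and 28.2% of the ectoderm lists by signal. Others that held with either list were at 15479317 to 15480110, 15537065 to 15538035, 15641036 to 15641356 and 15720067 to 15721082, at 16.0, 73.8, 177 and 257 kb. A region at 15510829 to 15511432, 47.4 kb inside the gene, was found in the ectoderm and the molar libraries with either list and not in the sorted cells or incisor.

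Gli3 also had regions of the reverse pattern. The region at 15710142 to 15711289, 247 kb inside the gene and about 10 kb from the ectoderm region at 257 kb, had a peak in all 5 postnatal libraries and no ectoderm library with either list. It stood in the top 26.7% and 38.3% of the Sox2-positive lists and 8.28% to 13.4% of the whole-tooth lists. A weaker one lay at 15494008 to 15494898, 30.7 kb from the start. The ectoderm-only count of 14 at Gli3 against the sorted cells was 9 with 38000 peaks per list, 6 with lists cut to the 50% that ranked first by p-value, and 23 without ectoderm replicate 2. It exceeded the Sox2-positive-only count at Gli3 under each alternative tried.

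**Figure D5:**
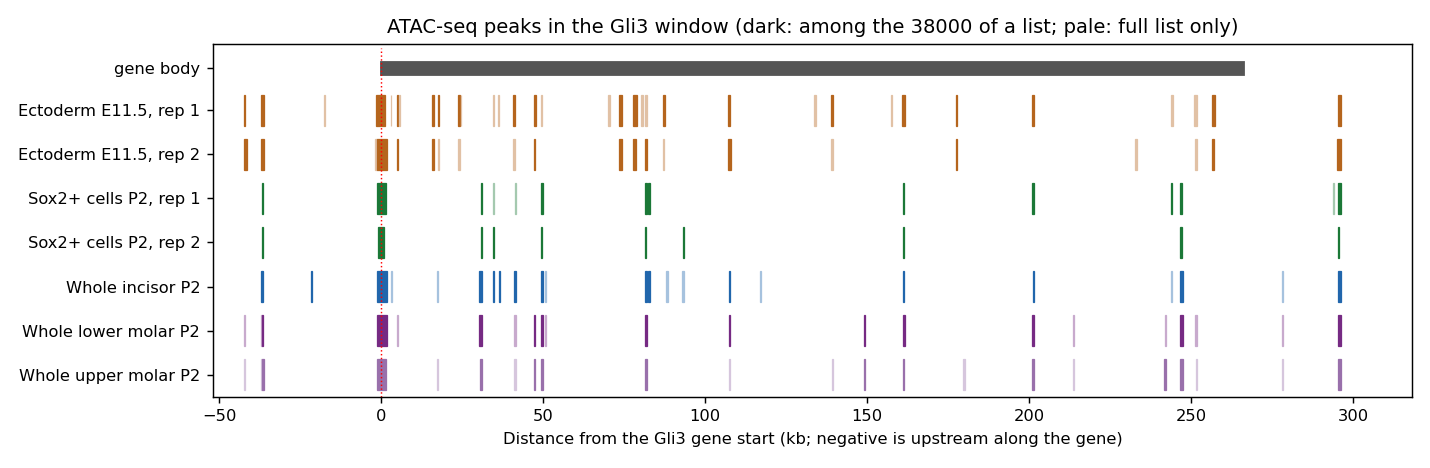
Peaks in the Gli3 window by distance from the gene start (x axis, kb, negative upstream) in the 7 libraries (rows), dark where among the 38000 of a list and pale where only in the full list, with the gene body as a grey bar. Ectoderm has peaks at 73.8, 78.3 and 257 kb that no postnatal library has, and the 5 postnatal libraries share peaks at 30.7 and 247 kb that ectoderm lacks.

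The regions of the 7 genes that were common to all libraries were also the widest. Of the 178, the 32 with a peak in all 7 libraries had a median merged width of 1560 bp, the 94 in 2 to 6 libraries 659.5 bp and the 52 in 1 library 379 bp. Over all autosomal regions these medians were 1357, 565 and 339 bp. Merging more peaks widens a region by construction. Regions in all 7 libraries made up 18.0% of the 178, against 14.2% of all autosomal regions, and 19.6% of 112 against 19.2% with 38000 peaks per list.

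The other patterns over the 7 libraries held fewer regions. Ectoderm alone had 16 of the 178 regions (8.99%, against 11.7% of all autosomal regions), of which 7 were at Gli3, 4 each at Gli2 and Hhip and 1 at Smo. All 5 postnatal libraries without ectoderm had 12 (6.74%, against 4.61%), of which 5 were at Ptch1, 3 at Gli2, 2 at Gli3 and 1 each at Gli1 and Smo. The 3 whole teeth alone shared 8 (4.49%, against 3.94%), incisor alone had 10 (5.62%, against 5.79%) and both molars alone 8 (4.49%, against 6.26%). Ectoderm and molars together, without the others, had 3 (1.69%, against 2.36%), all at Gli3. The sorted cells alone shared 1 (0.562%, against 0.236%), at Ptch1, and shared 0 with incisor alone (against 0.415%). In 1 library only there were 52 (29.2%, against 31.3%).

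In the equal-length lists, with 112 regions, ectoderm alone had 14 (12.5%, against 12.8%) and the 5 postnatal libraries 10 (8.93%, against 6.29%). The 3 whole teeth alone shared 0 (against 1.77%), incisor alone had 5 (4.46%, against 4.36%) and both molars alone 4 (3.57%, against 4.83%). Ectoderm with the molars had 3 (2.68%, against 1.2%), 1 each at Gli2, Gli3 and Smo. The sorted cells alone shared 2, both at Ptch1 (1.79%, against 1.48%), and with incisor alone 3, all at Gli2 (2.68%, against 2.05%). In 1 library only there were 28 (25%, against 25.2%). Shares over the 7 genes thus lay within a few percentage points of the background for each pattern, and single genes rest on counts of 7 or fewer outside the pattern of 1 library only and that of all 7.

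The second comparison took the sorted cells together with the incisor, the tooth they came from. Of the 112 regions that these 3 libraries gave at the 7 genes, 30 were incisor-only (26.8%, against 29.9% of all autosomal regions) and 2 were Sox2-positive-only (1.79%, against 1.87%). The incisor-only regions were 10 at Gli3, 7 at Ptch1, 6 at Gli2, 3 at Hhip, 2 each at Smo and Gas1 and 0 at Gli1. The 2 Sox2-positive-only regions were 1 at Gli2 and 1 at Ptch1. That at Gli2, at 119004325 to 119005230, 48.8 kb inside the gene, had a peak in both ectoderm libraries as well. That at Ptch1, at 63511530 to 63512173, had a peak in no other library and was weak, at 81.3% and 96.1% of the lists by signal. These 2 regions were chosen after their values were seen. Among the 38000 peaks per list, 9 of 85 regions were incisor-only (10.6%, against 12.2%) and 5 were Sox2-positive-only (5.88%, against 7.1%), of which 3 were at Ptch1.

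The last comparisons were between teeth. Of the 126 regions of the 3 whole-tooth libraries, 17 were found in incisor only (13.5%, against 13.9% of all autosomal regions) and 19 in both molars only (15.1%, against 17.9%). Gli3 had 9 of the incisor-only and 6 of the molar-only regions, Gli2 3 and 6, and Smo 0 and 4. Regions that kept their class with 38000 peaks per list included an incisor region of Gli3 at 15499733 to 15500482, 36.4 kb from the start and also in the full list of ectoderm replicate 1, and molar regions of Gli2 at 118920921 to 118921428 and of Smo at 29726279 to 29726832, 8.94 kb before its start. On equal-length lists 13 of 75 were incisor-only (17.3%, against 18.5%) and 8 molar-only (10.7%, against 16.4%).

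Between the molars, 9 of 111 regions were found in the lower molar only (8.11%, against 12.3%) and 13 in the upper molar only (11.7%, against 10.3%). With 38000 peaks per list by p-value, 1 of 63 was in the lower molar only (1.59%, against 10.3%) and 11 in the upper molar only (17.5%, against 10.3%), 6 of them at Ptch1. Taking 38000 peaks by signal gave 8 and 8, so this contrast depended on how peaks were ranked.

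Other genes of the pathway were described by the same counts. None of 28 had more peaks within 50 kb in both Sox2-positive than in both ectoderm libraries, and 17 had fewer, where 3.43% and 46.2% of all genes did. With equal-length lists the counts were 8 and 9, against 20.2% and 23.1% of all genes. All 10 regulators of SMO and GLI, among them Sufu, Kif7, Spop and Gpr161, had a gene-start peak in all 7 libraries with either list. Over all genes this held for 56.5% in full lists and 52.4% with 38000 peaks per list. The Gpr161 start itself lay under a peak in ectoderm and the molars, and not in the sorted cells or incisor. Of the 6 genes for ligands and their release, 5 had a start peak in each ectoderm library and 2 in each Sox2-positive library, where 68.0% and 66.0% of all genes did in ectoderm and 60.2% and 59.1% in the sorted cells. With 38000 peaks per list these were 4 and 2 genes, against 61.4% and 63.2% of all genes in ectoderm and 59.0% and 58.9% in the sorted cells. Shh, the ligand gene of the tooth epithelium, had a peak at a gene end in ectoderm and in the molars, both libraries of each, and none in the sorted cells or incisor. Lrp2, a large endocytic receptor that binds the ligand, had 12 and 8 peaks in ectoderm and 0 in all 5 postnatal libraries. Its start peak was found in ectoderm alone with either list. Cdon, a co-receptor gene with no start peak in any library, had 17 and 11 peaks in ectoderm and 4 and 6 in the sorted cells.

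Among 8 genes known as Hedgehog targets in some tissues, 4 had more peaks in both Sox2-positive than in both ectoderm libraries on equal-length lists. On the same lists 0 had fewer, and over all genes these shares were 20.2% and 23.1%. In full lists the counts were 0 and 1, against 3.43% and 46.2% of all genes. The 4 were Ccnd2, a cyclin gene, Bcl2, a survival gene, and the forkhead genes Foxf1 and Foxf2. Foxf1 had 4 and 7 peaks in ectoderm, 9 and 12 in the sorted cells and 10 or 11 in each whole tooth on equal-length lists. The median difference, Sox2-positive minus ectoderm, was 2.5 peaks for these 8 genes and 2.5 for the 7 receptor and effector genes, against 0 for all genes, and in full lists −0.75 and −5, against −2.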

How the data were processed

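The deposited files are peak lists in narrowPeak layout, 1 per library. Per the submitters' processing notes the reads were handled with FastQC, Trimmomatic, Bowtie2, deepTools and Genrich on mm10 (GRCm38). Versions, options, read filters and any shift of reads for the transposase are not given in the sources used here. The signal deposited for a peak is, in this caller's usual output, the area under its significance curve, and every value was at least 200. The deposited −log10 p-value was used to choose the 38000 peaks, with ties broken by signal. Both served to order peaks inside 1 list and nothing else, since nothing in the files shows a normalization between libraries. Lists hold no reads, so depth is unknown and no count model was fitted.

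Peaks sharing at least 1 bp were merged over the libraries compared, on autosomes. Region coordinates are from the merge of all 7 libraries, counted from 1. Named regions were, for each gene and class, at most 3 that kept the class with full lists and with 38000 peaks per list, by mean rank of signal; others described were chosen after their values were seen. The genes and lists were chosen with earlier results of these data known. Gene positions came from RefSeq GRCm38.p6, which gave no exons. The code was tested on simulated lists. Python 3.11.15, numpy 2.4.6, pandas 2.3.3, scipy 1.17.1 and matplotlib 3.10.9 were used. Groups and replicate numbers came from sample titles. Alternatives were equal lengths by signal, lists cut to the 50% that ranked first by p-value, 50% of a region covered, windows of 200 bp around summits, leaving out each replicate and, chosen after seeing the data, leaving out each gene. The summed count of the epithelial marker list is not reported here.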

Additional observations from a re-analysis of the deposited data

How the results depend on the processing

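The excess of member-gene peaks per 10000 in Sox2-positive cells over ectoderm rested on Ptch1. With Ptch1 left out, an alternative chosen after seeing the data, ectoderm minus Sox2-positive was −0.56 in full lists and −0.263 with 38000 peaks per list, and the groups overlapped. With all 7 genes counted it was between −5.17 and −2.11 under the alternatives run, with a replicate left out from −5.17 to −2.53. Counts of regions over the 7 genes moved more. Leaving out a replicate gave 27 to 61 ectoderm-only regions, against 26.1% to 51.5% of all autosomal regions. The 61, of 143 regions, came without ectoderm replicate 2. Sox2-positive-only regions against ectoderm numbered 14 to 24, against 7.82% to 15.3% of all. For the sorted cells with incisor, 34 to 42 were in incisor only, against 40.6% to 42.2% of all. In the sorted cells only there were 7 to 12, against 4.39% to 9.39% of all. With 38000 peaks per list by p-value that comparison gave 9 in incisor only and 5 in the sorted cells only, 8 molar-only and 1 lower-molar-only. By signal the values were 10, 5 and 7, with 8 upper-molar-only. Of all regions, 11.7%, 6.97%, 15.8% and 9.85% were called by signal in these classes. Lists cut to the 50% that ranked first by p-value gave 72 regions for ectoderm and the sorted cells. Of these 15 were ectoderm-only and 4 Sox2-positive-only, against 21.25% and 6.06% of all. On these cut lists 0 of 57 were Sox2-positive-only against incisor, against 1.73% of all. Of 64 whole-tooth regions 8 were incisor-only and 8 molar-only, against 15.5% and 19.1% of all. Of 57 molar regions 3 were lower-molar-only and 7 upper-molar-only, against 11.3% and 9.155% of all. Those in the sorted cells and not incisor numbered 4 with 50% of a region covered and 7 with summit windows. Over all regions these shares were 2.16% and 3.14%. The causes were not tested beyond the shorter lists. Among the 7 genes, a peak over the start itself, not within 1 kb, moved only the Ptch1 count, from 7 to 6 libraries. Equal-length lists moved only the Hhip count, from 7 to 4. No paired analysis was possible because the region counts come from no test and the labels do not tie a replicate number to a shared animal or batch. Unknown depth limits every absence of a peak to the lists as called.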
